A study of Mus musculus with 2 samples.

Results

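Trp63, Foxa1, Foxa2, Klf3, Klf4, Klf5, Tfap2a, Tfap2c and Foxq1 encode transcription factors of the urothelium and other epithelia. They were chosen by name, and every array probe that carries one of the 9 names was followed, 15 probes of the 39429 on the array and 9 genes of 29924 named features. Gene expression was profiled in E18.5 ureters of NMRI mice on 2 two-colour microarrays, each a direct comparison of a Pparg-cKO RNA pool with a control RNA pool (called a pair below). Pparg-cKO embryos were Pax2-cre/+; Pparg(fl/fl). Controls carried the floxed Pparg allele as Pparg(fl/?), with the other allele not given, and the study's methods describe them as littermates without cre. All 4 pools therefore came from one stage and strain, and floxed Pparg was present in every pool. Pax2-cre is active in the nephric duct, the ureteric epithelium and the collecting ducts. Replicate 1 compared female pools and replicate 2 compared male pools, with the dyes exchanged. Sex, dye orientation and array thus cannot be told apart, and pools of several embryos do not show the spread between embryos.

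The urothelium of the ureter has B cells at its base, I cells in between and S cells at the lumen (basal, intermediate and superficial). p63, the product of Trp63, is a p53-family factor that marks B and I cells and is needed for stratified epithelia to form. FOXA1 and FOXA2 are forkhead pioneer factors that open chromatin in endoderm-derived and other epithelia, and FOXA1 acts beside PPARG and GATA3 in luminal urothelial cells. KLF3, KLF4 and KLF5 are zinc finger proteins that bind GC-rich and CACCC sites. KLF5 is linked to growth and maturation of bladder urothelium, KLF4 to epithelial barrier formation, and KLF3 acts mainly as a repressor. TFAP2A and TFAP2C bind GC-rich palindromes in ectoderm-derived and ductal epithelia, and FOXQ1 is a forkhead factor of epithelial and hair shaft cells.

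The probes are 60 bases long, and their letters are shown here for the genes on which the values below turn. Trp63 was read by 4 probes spread over its locus on the plus strand of chromosome 16 (mm9), and these 4 did not give the same ratio. Trp63 probe 4, at chr16:25871159-25871218, is printed whole. It has no stop codon in any of 3 frames and holds a run of 6 CAG units, in capitals. Trp63 probe 3 at chr16:25821344-25821403, Trp63 probe 2 at chr16:25867718-25867777 and Trp63 probe 1 at chr16:25892012-25892071 are shown by their first 30 bases. The other lines give the Klf5 probe, whose 60 bases lie in parts across chr14:99702656-99712388 (mm9, plus strand, a span of 9733 bases) and so join sequence on either side of an intron, and the first 30 bases of the Foxa1, Tfap2a and Foxq1 probes whose ratios differed most between the arrays. Those lie at chr12:58641764-58641823 (minus strand), chr13:40811044-40811103 (minus strand) and chr13:31652206-31652265 (plus strand).
Trp63 probe 4: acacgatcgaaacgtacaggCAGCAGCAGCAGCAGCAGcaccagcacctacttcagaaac
Trp63 probe 3: acttaccatgtgtcctggctatagcttttc
Trp63 probe 2: cagtcccatataccatgcacttaactcttt
Trp63 probe 1: caaaaggtactttcttatagacatgatact
Klf5 probe 1: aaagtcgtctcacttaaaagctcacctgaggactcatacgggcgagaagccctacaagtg
Foxa1 probe 1: gcatggtttactccttttctttacagccga
Tfap2a probe 1: ctatgcctgtcaatgtatcatagtcctttg
Foxq1 probe 1: tgtaactttacagaggatcaaagccgttct

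The direction of every ratio needs a caution before the first signed value. Ratios are given as Pparg-cKO over control in the direction of the deposited value table, which is also that of the study's text and of the tissue stainings it describes for S cell genes, basal keratins and the mutant Pparg transcript, and is for that reason the likely one. The dye labels of both arrays state the opposite, and if they are right, every "higher" and "lower" is exchanged while sizes and p-values stay. Pparg itself, read by a probe whose place relative to the deleted exons 2 and 3 was not analysed here and which therefore does not check the deletion, had a processed signal of 12357 in the Pparg-cKO pool and 6113 in the control pool in the female pair, and of 12930 and 6688 in the male pair. Its mean log2 ratio was 0.97 ± 0.02 (SD, n = 2), higher in the pools labelled Pparg-cKO in the deposited direction and lower by the same factor by the dye labels. Markers of S and I cells were lower in the same pools, with 6 of 6 lower on both arrays (26.5% of all tested probes), and Krt20, a keratin of S cells, had a mean log2 ratio of -3.09.

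None of the 13 testable probes of the 9 genes passed the test. The limma test, on the mean log2 ratio of the 2 arrays for each probe, called 0 of 13 after Benjamini-Hochberg adjustment, where 0.841% of all 30069 tested probes were called. At an unadjusted p under 0.05, 7 of the 13 probes passed, against 8.48% of all tested probes. These were 3 probes of Trp63, with lower signal in Pparg-cKO (background 4.36%), and 1 probe each of Foxa1, Klf4, Klf5 and Tfap2a, with higher signal (background 4.12%). The 3 Trp63 probes read 1 gene and are not independent. By the fold rule, at least 1.5-fold in the same direction on both arrays with a processed signal of at least 100, 0 of 12 bright probes passed, against 1.72% of 17914. The ureter is a mixture of epithelium, smooth muscle and connective tissue, so that fewer cells of a type and less RNA per cell cannot be told apart. On ureter sections at E18.5, the study saw no change of Trp63, Foxa1 or Klf5 RNA in Pparg-cKO by in situ hybridization. It found p63 protein only in the basal layer of the mutant urothelium.

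**Figure D1:**
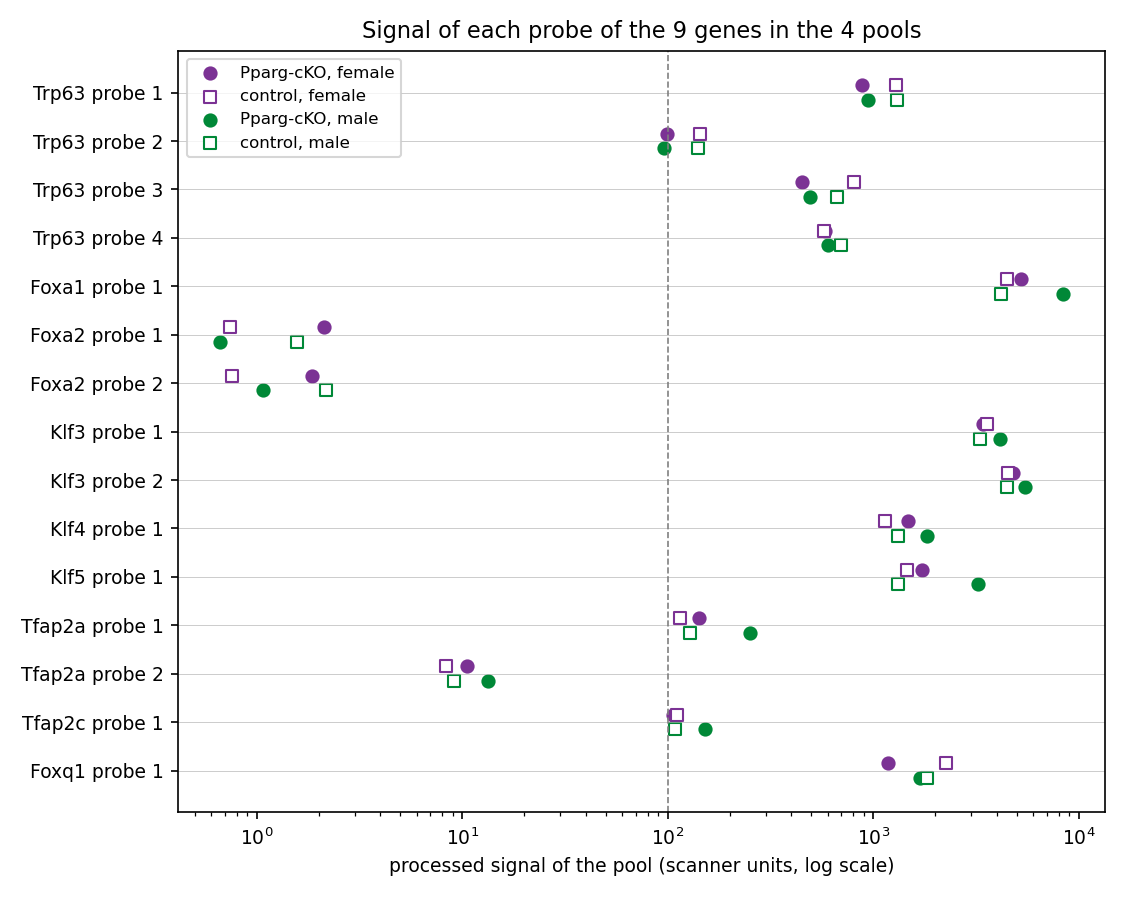
Processed signal (scanner units, log scale) of each of the 15 probes in the 4 pools; filled circles are Pparg-cKO pools and open squares control pools, female in purple and male in green, and the dashed line marks 100. The 2 Foxa2 probes lie near the bottom of the scale, and the Klf5 and Foxa1 signals of the male Pparg-cKO pool stand to the right of the other 3 pools.

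Of the Trp63 probes, 3 had lower signal in both Pparg-cKO pools and the fourth was nearly level. Trp63 probe 1 read 886 in the Pparg-cKO pool and 1286 in the control pool of the female pair, and 945 and 1299 in the male pair. Its log2 ratios were -0.53 and -0.44, a mean of -0.48 ± 0.06 (SD, n = 2), which is 1.40-fold lower, with a 95% interval from -0.75 to -0.22 (limma, adjusted p = 0.214). Both pairs of pools were apart in all spots, since the Pparg-cKO and control signals did not overlap on either array.

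Trp63 probe 3, the most upstream of the 4, gave the largest Trp63 ratio. It read 449 and 807 in the female pair, and 494 and 670 in the male pair, the Pparg-cKO pool first, with log2 ratios of -0.86 and -0.47, a mean of -0.67 ± 0.27 (SD, n = 2; limma, adjusted p = 0.164). The spot ratios were -0.73 or lower on the female array and between -0.53 and -0.38 on the male array, without overlap. With no offset in the background correction the same probe passed (limma, adjusted p = 0.0364), in a setting that called 739 probes in all.

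Trp63 probe 2, the dimmest, read 99.2 and 144 in the female pair, and 96.0 and 140.5 in the male pair, close to the brightness limit of the fold rule. Its mean log2 ratio was -0.46 ± 0.07 (SD, n = 2; limma, adjusted p = 0.243). Probes 1, 2 and 3 were thus at least 1.2-fold lower on both arrays, as were 3.36% of all bright probes.

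Trp63 probe 4 stood apart. It read 584 and 575 in the female pair, and 602 and 695 in the male pair, and its log2 ratios of -0.04 and -0.07 had a mean of -0.05 ± 0.02 (SD, n = 2), which turned to 0.04 with median centring of the arrays. The 95% interval, from -0.32 to 0.21, overlapped those of probes 1 and 2 and ended short of that of probe 3, whose upper end was -0.33. The difference between probes was not tested. Of the 39429 probes on the array, 11 held 4 or more consecutive CAG units, a share of 0.0279%, and their median log2 ratio was 0.03. Trp63 makes several transcripts, with 2 promoters and alternative 3′ ends, and which of them each probe reads was not analysed here, since no exon annotation of the files' build was used.

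**Figure D2:**
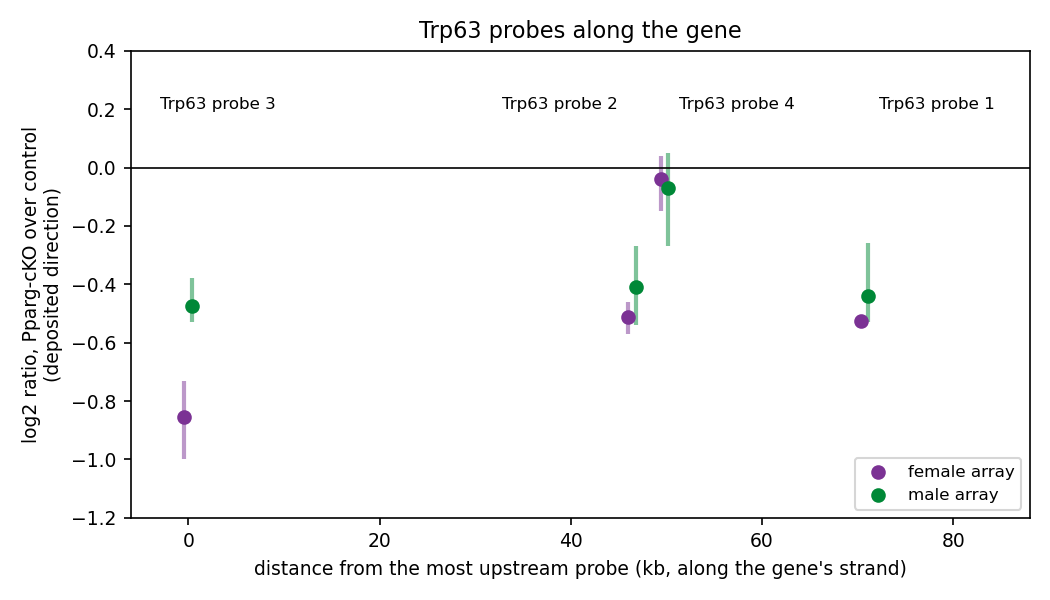
Log2 ratio of the 4 Trp63 probes (vertical axis) by distance from the most upstream probe in kb (horizontal axis), for the female (purple) and male (green) array; points are array means, lines run from the lowest to the highest spot. Probe 4, 49.8 kb downstream of probe 3 and between probes 2 and 1, is the one near 0.

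Foxa1 differed between the arrays. Its probe read 5268 in the Pparg-cKO pool and 4502 in the control pool in the female pair, and 8360 and 4194 in the male pair. The log2 ratio was 0.16 (spots from 0.07 to 0.37) on the female array and 1.06 (spots from 1.03 to 1.09, with 3 of the 4 spots kept) on the male array, and the mean was 0.61 ± 0.63 (SD, n = 2; limma, adjusted p = 0.524). The control pools were near each other, and the male Pparg-cKO pool was the one that stood apart.

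Foxa2, the related factor of endodermal epithelia, was not detected. Foxa2 probe 1, at chr2:147868614-147868673, and Foxa2 probe 2, at chr2:147868669-147868728 (both minus strand, mm9), overlap at their ends. Their processed signals ran from 0.665 to 2.16 and did not meet the limit above background that testing required. No fold is given for them, and they were not tested. Foxa3, the third member of the family, was likewise not well above background.

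Klf5 had the largest mean ratio of the 9 genes and the largest gap between arrays. Its probe read 1725 and 1467 in the female pair, and 3234 and 1315 in the male pair. The log2 ratio of 0.16 (spots from 0.04 to 0.25) on the female array became 1.35 (spots from 1.16 to 1.49), or 2.54-fold, on the male array. The mean was 0.75 ± 0.84 (SD, n = 2), with a 95% interval from 0.07 to 1.44 (limma, adjusted p = 0.535). The limma standard error behind this interval was 0.27. It draws on the spread of other probes, so the interval is narrower than the 2 Klf5 ratios alone would give. The SD of Klf5 exceeded the mean, and on the female array the spots of both pools overlapped.

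Klf4 was higher on both arrays by less. It was read at chr4:55540167-55540226 (minus strand, mm9), with 1474 in the Pparg-cKO and 1146 in the control pool in the female pair, and 1836 and 1317 in the male pair. Its log2 ratios were 0.32 and 0.58, a mean of 0.45 ± 0.18 (SD, n = 2; limma, adjusted p = 0.315). Neither pair of pools overlapped in its spots.

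Klf3 was read by 2 bright probes, at chr5:65221309-65221368 and chr5:65223991-65224050 (plus strand, mm9). Klf3 probe 1 read 3417 and 3574 in the female pair, and 4144 and 3301 in the male pair, and its log2 ratios were -0.14 and 0.47. Klf3 probe 2 read 4798 and 4548 in the female pair and 5477 and 4462 in the male pair, with ratios of 0.02 and 0.30. The means, 0.16 ± 0.43 and 0.16 ± 0.20 (SD, n = 2), had limma adjusted p-values of 0.904 and 0.832, and both probes showed the larger ratio on the male array.

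Tfap2a was read by 2 probes. Tfap2a probe 1, near the brightness limit, read 142 and 115 in the female pair, and 252 and 128 in the male pair, with log2 ratios of 0.30 and 0.94, a mean of 0.62 ± 0.45 (SD, n = 2; limma, adjusted p = 0.345). Its spots did not overlap between the arrays. Tfap2a probe 2, at chr13:40829040-40829099 (minus strand, mm9), was too dim for the fold rule. It read 10.5 and 8.33 in the female pair, and 13.3 and 9.12 in the male pair, and its mean log2 ratio was 0.18 ± 0.06 (SD, n = 2; limma, adjusted p = 0.762). At this dim signal the value moved with the processing, and it was 0.31 with no offset, 0.42 in the deposited table and 0.43 with scanner-processed signals.

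Tfap2c, at chr2:172383860-172383919 (plus strand, mm9), read 106.5 and 111 in the female pair, and 153 and 109 in the male pair. Its log2 ratios were -0.02 and 0.44, a mean of 0.21 ± 0.32 (SD, n = 2; limma, adjusted p = 0.799). As for Tfap2a, the control pools were alike and the male Pparg-cKO pool was the higher one.

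Foxq1 differed in the other way. Its probe read 1182 in the Pparg-cKO pool and 2269 in the control pool of the female pair, but 1699 and 1834 in the male pair. The log2 ratio was -1.04 (spots from -1.25 to -0.75) on the female array and 0.03 (spots from -0.17 to 0.16) on the male array, and the mean was -0.50 ± 0.76 (SD, n = 2; limma, adjusted p = 0.694). It was 2.05-fold lower on the female array alone, where the 2 pools did not overlap in their spots.

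**Figure D3:**
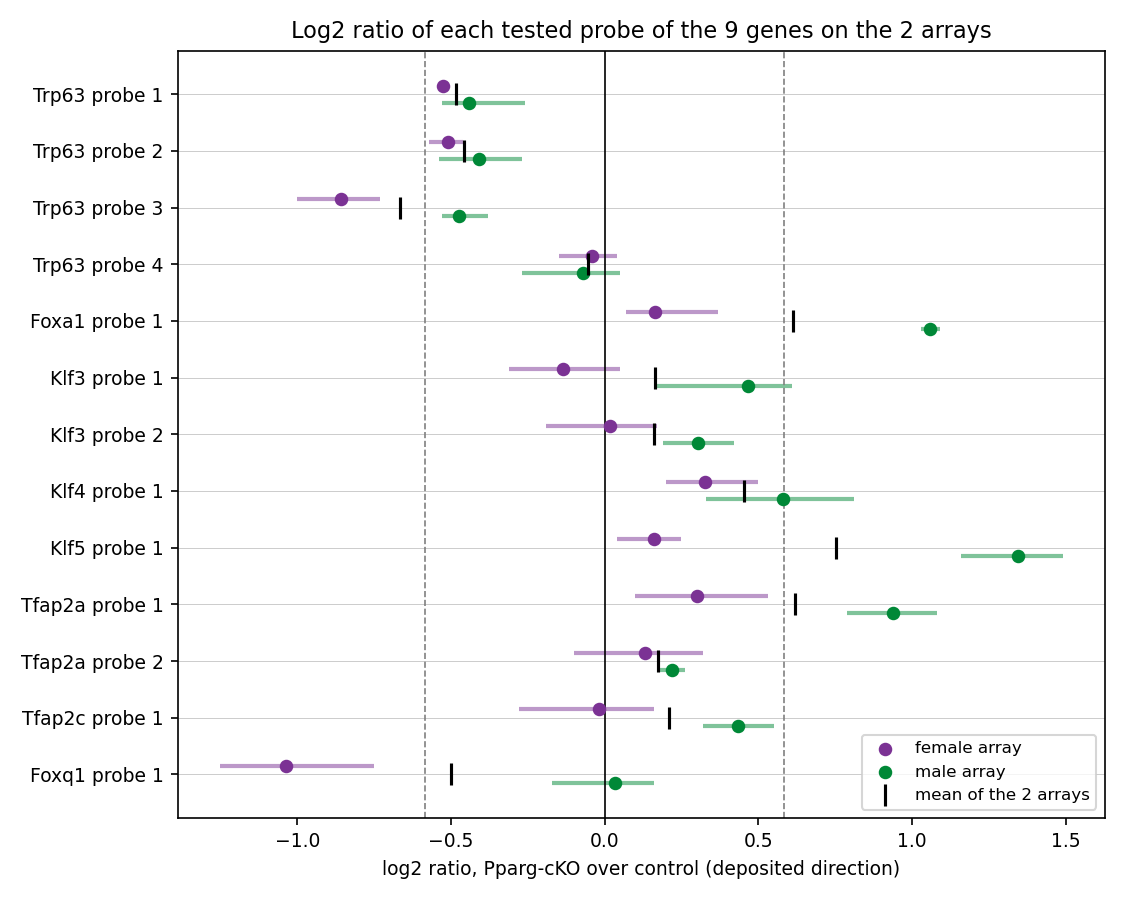
Log2 ratio of Pparg-cKO over control, in the deposited direction, for each of the 13 tested probes on the female (purple) and male (green) array; points are array means, coloured lines the range of the spots, black ticks the mean of both arrays, and dashed lines 1.5-fold. No probe lies past the same dashed line on both arrays.

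The male array gave the higher ratio for 12 of the 13 tested probes, against 55.1% of all tested probes. The exception was Trp63 probe 4. The medians of the 13 were -0.02 (female) and 0.30 (male), while the medians over all tested probes were -0.01 and 0.01. On the male array alone, 3 of 12 bright probes, of Foxa1, Klf5 and Tfap2a, were at least 1.5-fold higher, against 5.60% of bright probes. On the female array alone, Trp63 probe 3 and Foxq1 were at least 1.5-fold lower, against 1.83%. At least 1.2-fold higher on both arrays were Klf4 and Tfap2a probe 1, against 2.63% of bright probes. Counting signs only, 6 of the 13 were higher on both arrays (25.7% of all tested probes) and 4, all of Trp63, were lower on both (26.5%).

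Epithelial markers moved with these ratios. All 10 of 10 markers had a higher ratio on the male than on the female array, as had 55.1% of all tested probes, with medians of 0.05 (female) and 0.49 (male). The list was not of one direction. Krt19, a keratin of simple epithelia and urothelium, had ratios of 0.71 and 1.29 and was the one marker past the fold rule, while Krt18, a keratin of luminal cells, had ratios of -1.04 and -0.54, and 0 of 10 were called in limma. Summed signals of the epithelial list were 45121 in the Pparg-cKO and 52113 in the control pool in the female pair, and 59873 and 45144 in the male pair. Liver markers were also uneven, with summed signals of 1864 and 1968 in the female pair and 2077 and 4243 in the male pair, and a median ratio of -0.05 and -1.07. Of these, 0 of 5 were called, and Alb (albumin) and Afp (alpha-fetoprotein) had the largest means, -0.63 ± 0.63 and -0.63 ± 0.82 (SD, n = 2). The part of epithelial or liver RNA in the ratios of the 9 genes was not tested.

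**Figure D4:**
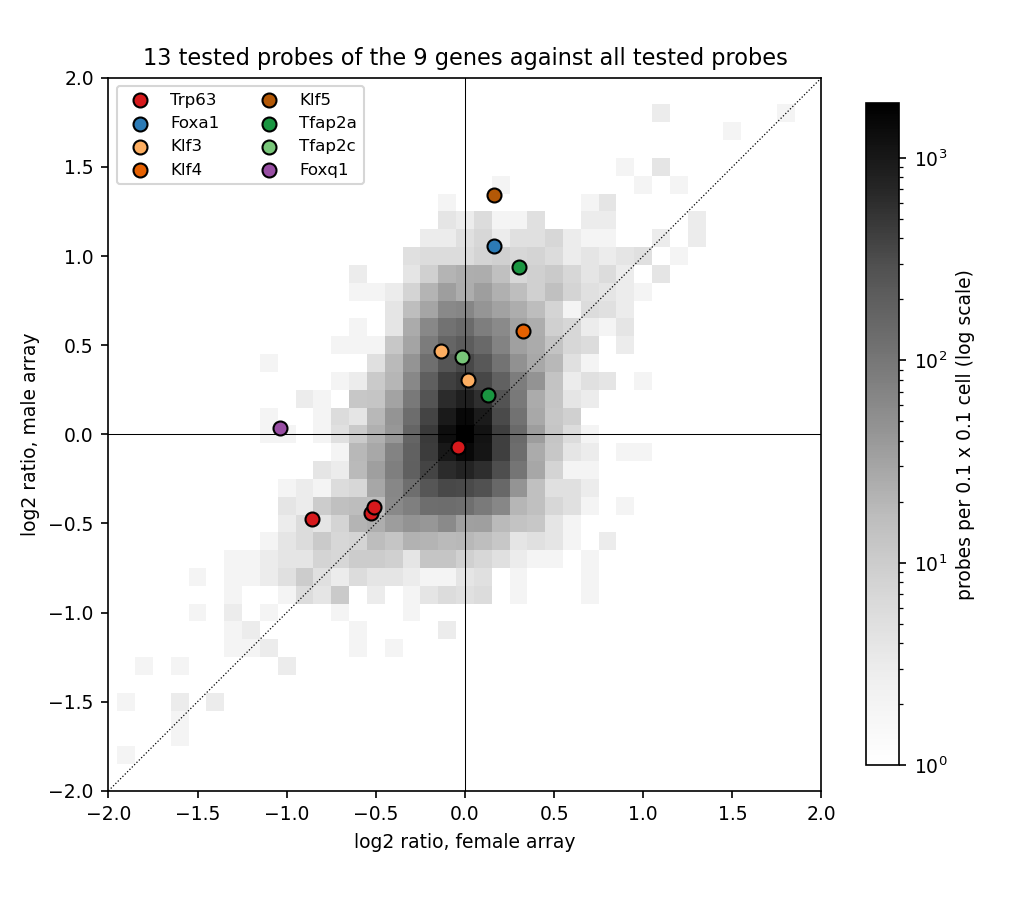
Log2 ratio on the female array (horizontal) against the male array (vertical) for the 13 tested probes of the 9 genes (coloured) and for all 30069 tested probes (grey, number of probes per cell on a log scale; 48 probes lie beyond -2 or 2). Klf5 and Foxa1 lie above the dotted line of equal ratios, Foxq1 lies to the left, and 3 Trp63 probes lie below 0 on both axes.

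The families of these factors were read from lists in which each gene was read by its brightest probe. In the Klf family beside Klf3, Klf4 and Klf5, 0 of 14 tested genes passed limma (0.841% of all tested probes) and 0 passed the fold rule (1.72% of bright probes), and the median log2 ratio was 0.03 (0.01 over all probes). The largest were Klf2, a factor of endothelium, at 0.43 ± 0.38 (SD, n = 2) and Klf7 at 0.32 ± 0.19. Of 13 other forkhead factors tested, 0 passed either, with a median of 0.02. In lists of this size those shares amount to less than 1 gene, so that a count of 0 is near the background. Foxm1, which drives cell division genes, was at 0.39 ± 0.21 and Foxo1 at 0.37 ± 0.41 (SD, n = 2).

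Trp53 and Trp73, the relatives of Trp63, had mean ratios of 0.10 ± 0.02 and -0.24 ± 0.29 (SD, n = 2), and neither passed. Of the Tfap2 relatives, Tfap2b, at 0.35 ± 0.15 (SD, n = 2), read from 18.3 to 32.1 and did not pass, and Tfap2d and Tfap2e were not well above background. Among 12 other urothelial regulators, Pparg passed both tests and 11 passed neither. Gata3, a luminal urothelial factor, had ratios of -0.08 and 1.23, and Grhl3, which acts in terminal differentiation, of -0.40 and 0.56 on the female and male array.

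Genes that p63 is known to drive in stratified epithelia were counted next. Of 19 tested, 12 were higher and 1 was lower on both arrays (25.7% and 26.5% of all tested probes), and 2 passed limma (0.841% of all). The median log2 ratio was 0.41, against 0.01 over all tested probes. By array the medians were 0.18 (female) and 0.61 (male), with 16 of the 19 higher on the male array, a gap in the direction of that of the epithelial markers. Pkp1, a desmosome protein, at 1.46 ± 0.53 (SD, n = 2; adjusted p of 0.0494 in limma), and Krt14, a basal keratin, at 1.00 ± 0.15 (adjusted p of 0.0328), rose. Krt5, the keratin of B cells, had ratios of -0.86 and 0.35 on the female and male array, and its mean of -0.25 ± 0.85 did not pass. For comparison, 6 of the 10 general epithelial markers were higher and 2 were lower on both arrays.

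Of the 4 markers of basal and regenerating urothelium, 3 were called in limma, all higher, where 0.841% of all tested probes were called. The fourth was Krt5, which had opposite signs on the 2 arrays. Krt5 and Krt14 are also in the preceding list. Krt15, at 1.18 ± 0.01 (SD, n = 2), and Krt14 passed both tests, and Krt17, at 0.84 ± 0.09, passed limma at a dim signal. Among the 6 markers of S and I cells, 3 were called lower in limma (0.841% of all tested probes were called). These were Krt20, Upk3b (-1.67 ± 0.03) and Upk1a (-1.51 ± 0.56). Upk1b (-1.02 ± 0.40) passed the fold rule only, and Upk2 (-0.51 ± 0.32) and Upk3a (-0.24 ± 0.10) passed neither. Smooth muscle markers had 0 of 7 called and a median of -0.15, and the largest were the actin-binding Tagln at -0.24 ± 0.06 and the smooth muscle actin Actg2 at -0.23 ± 0.21 (SD, n = 2). Of the kidney tubule markers, Umod and Slc12a1 were not well above background. The other 3, Lrp2, Slc22a6 and Slc34a1, had lower ratios on both arrays with 0 called, and their median was -0.13 (female) and -0.89 (male), uneven between the arrays as the liver list was. Of the 5 collecting duct markers, 1 was called (0.841% of all tested probes were called), Fxyd4 at 2.38 ± 0.21, and the list median was 0.20. Aqp2, the defining one, was at -0.15 ± 0.04 and read from 21.8 to 28.1. Skeletal muscle markers (0 of 6 called) had the median -0.27, with Ckm, the muscle creatine kinase, at -0.72 ± 0.32 and Myh8, a perinatal myosin, at -0.56 ± 0.07 (SD, n = 2). The study used CKM as a smooth muscle marker of the ureter, so the ratio of Ckm need not be one of skeletal muscle. Of the adipose markers, Plin1 and Cidec were not well above background. Fabp4, a fatty acid carrier of fat cells and other tissues, was bright in all pools, from 14519 to 18802, with a mean log2 ratio of -0.12 ± 0.26 (SD, n = 2). Adipoq, the fat cell hormone adiponectin, read 12.3 in the Pparg-cKO and 85.9 in the control pool of the female pair, and 8.24 and 13.1 in the male pair, and did not pass (limma, adjusted p = 0.481). The part of tubule or fat RNA in the ratios of the 9 genes was not tested.

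**Figure D5:**
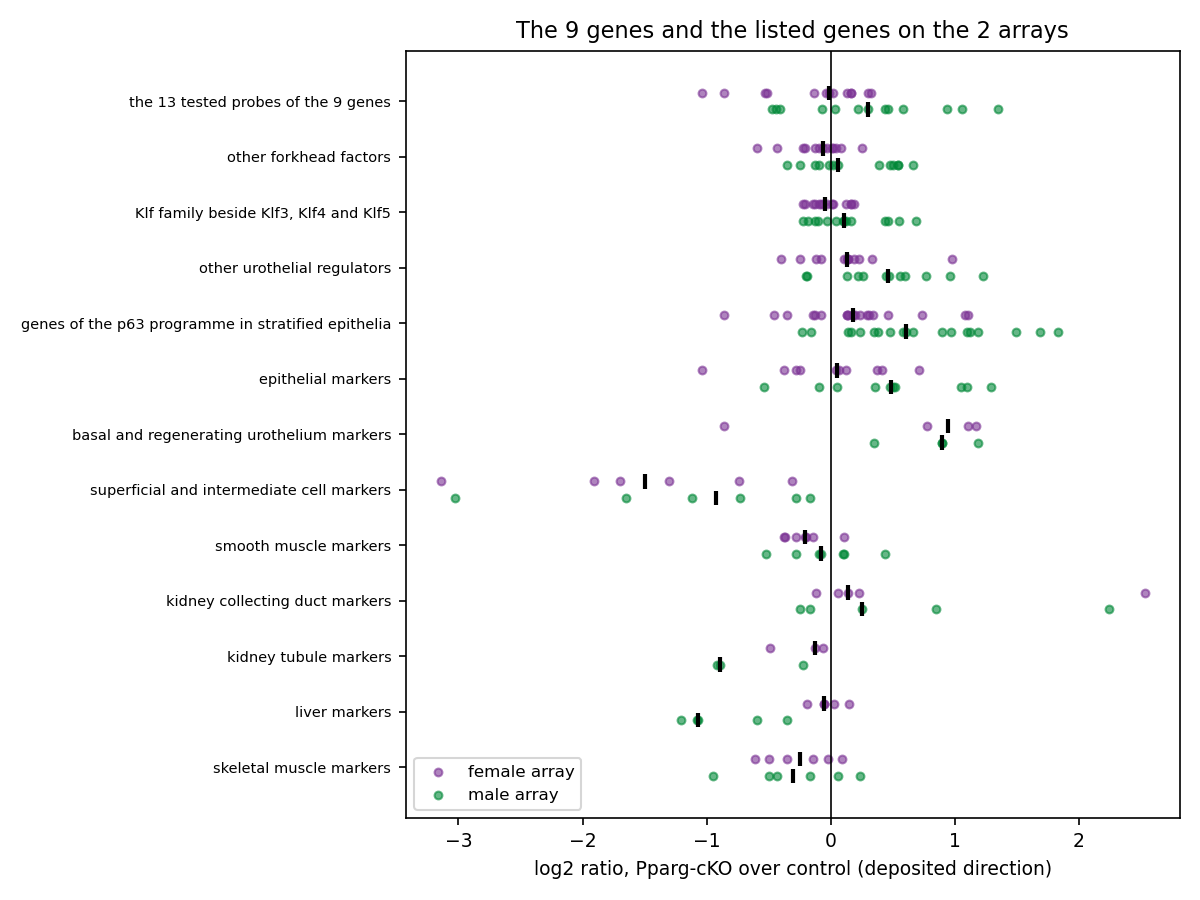
Log2 ratio of the 13 tested probes and of the tested genes of each list on the female (purple) and male (green) array, with black bars at the medians. The median of the 13 probes is -0.02 (female) and 0.30 (male), and the epithelial list (0.05 and 0.49) shows a gap of the same direction.

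The genes most like Klf5, the gene with the largest mean ratio among the 9, were sought over the 2 ratios among 61 tested genes of the pathway lists. Cdh3, a cadherin of basal epithelial cells, was nearest with ratios of 0.24 and 1.19 and a distance of 0.17. Jag2, a Notch ligand, followed at 0.22 and Gata3 at 0.26. With 2 points for each gene, likeness means only a similar pair of ratios.

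Promoter sequence was read because Foxa1, Klf4 and Tfap2a had the same sign on both arrays. RefSeq (GRCm38.p6) gave upstream sequence for 5 of the 9 genes in 8 promoters, without Trp63 or Klf5. The 250 bases before each start were searched on both strands. The PPARG and RXR direct repeat, AGGTCA followed by any base and AGGTCA again, was in 0 of the 8 and in 0.0335% of 32851 promoters. The p53-family motif, CATG and a second CATG after 6 bases, was in 0 of the 8 and 0.490% of all. The forkhead motif TGTTTAC was in 1 of the 8 and in 3.17% of all, the Tfap2 motif GCCNNNGGC in 3 of the 8 and in 13.7%, and the Klf motif CCCACCC in 3 of the 8 and in 15.8%. Each of the last 2 was in only 2 genes, since Foxa2, not detected here, has 3 of the 8 promoters and holds 2 of the 3 matching ones in either case, beside Klf4 for the Tfap2 motif and Klf3 for the Klf motif. None of these motifs overlapped a different one in these 8 promoters. The match of Foxa1 begins 141 bases and that of Klf4 begins 9 bases before the start, and both are in capitals below, Foxa1 from chr12:57546112-57546361 and Klf4 from chr4:55532476-55532725, both on the minus strand of GRCm38.p6. A match of letters is not a bound site.
Foxa1 promoter: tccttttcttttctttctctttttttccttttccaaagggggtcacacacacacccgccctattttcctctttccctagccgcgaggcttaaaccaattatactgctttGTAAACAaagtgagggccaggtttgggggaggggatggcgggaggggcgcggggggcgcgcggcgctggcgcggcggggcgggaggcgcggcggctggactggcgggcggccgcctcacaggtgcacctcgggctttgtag
Klf4 promoter: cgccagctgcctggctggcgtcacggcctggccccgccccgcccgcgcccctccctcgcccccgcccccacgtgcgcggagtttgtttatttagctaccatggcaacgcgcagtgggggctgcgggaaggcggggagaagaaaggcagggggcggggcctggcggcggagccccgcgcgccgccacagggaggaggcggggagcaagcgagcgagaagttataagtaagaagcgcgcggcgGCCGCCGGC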

How the data were processed

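Per the labels, ureters of E18.5 embryos were dissected, total RNA was amplified in a single round and labelled with 2 dyes, and pools were compared on 2 Agilent arrays with exchanged dyes. Per the file headers and processing notes, the authors' files came from Agilent Feature Extraction 10.7.3.1 and hold spot intensity on a linear scale, a log10 ratio and spot flags. The authors also deposited a table of signed fold changes (named here as a score), used only as an alternative and for the direction, which ran with red over green on replicate 1 (r = 0.9965) and against it on replicate 2 (r = -0.9979), opposite to the dye labels.

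Each array held 174979 spots, 157716 of them not controls, for 39429 probes with 4 spots each; 2.87% and 3.241% of spots carried outlier flags and were left out, and 0 were saturated. The median red and green signals were 294.8 and 292.6 on the female and 323.9 and 333.9 on the male array. With 2 arrays, their number limits the precision. Signals were corrected with normexp (offset 50) and loess within each array, spots were averaged, and the 2 turned log2 ratios were tested in limma 3.58.1 (R 4.3.3) over probes well above background (in at least a share of 0.5 of their spots, in one channel or the other) on both arrays, with Benjamini-Hochberg adjustment. The fit was tested on simulated data. A p-value here reflects the spread between 2 arrays of pools, pulled by limma toward the spread typical of all tested probes. Each probe gave 1 residual degree of freedom, and the tested probes together added 4.49 (11.8 with no offset). P-values and intervals therefore rest in large part on other probes. For a probe whose arrays differ widely, the interval is narrower than its own 2 arrays would give. Processed signals in the text are those of the scanner software. Of the 15 probes, 12 matched a RefSeq transcript by accession, and all 12 carried the same symbol. The 9 genes and all lists were chosen with earlier results of these data known. Every probe of the 9 genes is named; from each list, the genes that passed either test are named (one result is not reported here), or the 2 largest where none did, and others named beside them were chosen after their values were seen. Alternatives were processed signals, no offset, median centring, the deposited table, no filter on dim probes, flagged spots kept, 1 probe per gene and each array alone.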

Additional observations from a re-analysis of the deposited data

Results flagged for a closer look

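Several results had opposite signs on the female and the male array, which is why they are given here; with 1 array for each sex, the difference was not tested. The male log2 ratio lay above the female one by 0.60 for Klf3 probe 1, by 0.45 for Tfap2c and by 1.07 for Foxq1. The median of the other forkhead factors differed by 0.12 and that of the Klf family beside Klf3, Klf4 and Klf5 by 0.15.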

How the results depend on the processing

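Of the 9 genes, 0 probes passed limma and 0 passed the fold rule, and the second count was 0 in every alternative that kept both arrays. With no offset in the background correction, 1 probe passed limma, Trp63 probe 3. On one array alone, 2 (female, without replicate 2) and 3 (male, without replicate 1) probes passed 1.5-fold. Trp63 probe 4 turned to 0.04 with median centring, a setting that moved the median of all probes on the male array to 0.10. On one array alone the log2 ratio ran from -0.14 to 0.47 for Klf3 probe 1, from -0.02 to 0.44 for Tfap2c and from -1.04 to 0.03 for Foxq1, so that their sign rests on 1 array. Over all probes, limma called 253 in the chosen setting, 134 with processed signals, 739 with no offset, 108 without the filter on dim probes and 0 (2703 at an unadjusted p under 0.05) with the deposited table. Adjusted p over these alternatives ran from 0.0364 to 0.638 for Trp63 probe 3 and from 0.135 to 0.666 for Klf5. The cause was not tested. Dim signal limits what is known of Foxa2, whose probes were too dim to be tested. Each ratio compares the Pparg-cKO and control pools of one array, so the test is paired by construction, and no fit without the pairing was made.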
